A study of Mus musculus with 6 samples.

Results

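The interferon-inducible GTPases described here are 8 genes, chosen by symbol among the 55416 genes of a count table from UVB-irradiated mouse keratinocytes. They are the guanylate-binding protein genes Gbp2, Gbp3 and Gbp7 and the immunity-related GTPase genes Irgm1, Irgm2, Igtp, Ifi47 and Iigp1. The guanylate-binding protein genes lie on chromosome 3, Iigp1 on chromosome 18 and the others on chromosome 11. All 8 symbols matched 1 gene each, and all 8 passed the filter on low counts. Keratinocytes, the cells that form the epidermis, came from C57BL/6J:129 hybrid pups that were 1 to 2 days old and were either Cebpb knockout (3 libraries, numbered 4, 5 and 6) or wild type (3 libraries, numbered 1, 2 and 3). Cebpb encodes the transcription factor C/EBPβ. Both genotypes were held in 0.05 mM calcium, were cultured for 5 days, were then exposed to a UVB dose of 10 mJ/cm2 (312 nm lamp), and were harvested 8 h later. No unirradiated cells were analysed here, so each difference is one between genotypes after UVB. The labels name neither the type of knockout allele nor how many animals or dishes stand behind a library, and p-values therefore measure the spread between libraries, which may be technical.

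Interferon gamma, and to a lesser degree the type I interferons, switch these GTPases on, in part through the transcription factor IRF1. Effector proteins among their products coat the membranes of vacuoles that hold bacteria or parasites, and break them open. Within the immunity-related family, Irgm1, Irgm2 and Igtp (also called Irgm3) sit on the cell's own membranes and keep effectors such as Iigp1 (Irga6), Ifi47 (Irgd) and the Tgtp proteins inactive there. Guanylate-binding proteins are larger relatives that gather on the same vacuoles and also promote inflammasome signalling. Interferon-responsive promoters commonly carry an interferon-stimulated response element, bound by IRF proteins, or a gamma-activated site.

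The promoters of the GTPases are shown first, so that their interferon elements can be read as sequence. The genes were chosen as a family known to respond to interferon, so such elements are close to what the choice implies, and their share is a description only. RefSeq promoter windows, 250 bases before to 50 bases after the annotated start on GRCm38.p6, were matched by symbol and are given for 7 of the 8 genes; that of Iigp1 was not used here. GRCm38 is older than the GRCm39 assembly behind the counts, and the positions below refer to GRCm38.p6 only. The lines give the 120 bases before the start, 5′ to 3′ on the gene's own strand. Capitals mark matches to the core of the interferon-stimulated response element, GAAA and again GAAA with any 2 bases between (TTTC and TTTC where the match is on the other strand), or to TTCNNNGAA, the gamma-activated site, which reads the same on both strands.
Irgm1 (chr11:48871421-48871540, minus strand): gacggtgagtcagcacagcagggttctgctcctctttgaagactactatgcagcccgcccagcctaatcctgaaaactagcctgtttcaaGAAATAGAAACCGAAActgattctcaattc
Irgm2 (chr11:58214857-58214976, plus strand): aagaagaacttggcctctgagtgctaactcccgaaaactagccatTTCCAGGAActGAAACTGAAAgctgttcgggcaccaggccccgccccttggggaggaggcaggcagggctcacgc
Igtp (chr11:58199436-58199555, plus strand): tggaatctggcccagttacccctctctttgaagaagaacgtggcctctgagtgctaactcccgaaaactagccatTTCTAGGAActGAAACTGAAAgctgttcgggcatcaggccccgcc
Gbp2 (chr3:142620543-142620662, plus strand): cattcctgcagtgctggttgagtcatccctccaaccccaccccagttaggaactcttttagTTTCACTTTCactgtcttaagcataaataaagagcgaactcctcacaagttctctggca
Gbp3 (chr3:142559924-142560043, plus strand): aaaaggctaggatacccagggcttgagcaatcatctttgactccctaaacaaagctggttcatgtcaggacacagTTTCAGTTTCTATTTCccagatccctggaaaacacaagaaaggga
Gbp7 (chr3:142530216-142530335, plus strand): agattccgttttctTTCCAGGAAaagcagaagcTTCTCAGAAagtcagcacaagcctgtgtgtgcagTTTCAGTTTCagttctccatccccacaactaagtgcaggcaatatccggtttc
Ifi47 (chr11:49076467-49076586, plus strand): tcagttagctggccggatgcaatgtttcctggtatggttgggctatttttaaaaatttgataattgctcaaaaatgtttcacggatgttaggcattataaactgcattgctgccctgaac
The response element core was present in 6 of the 7 genes, against 3.44% of all 32851 windows in the table. It lay within 64 bases of the start in each of the 6. In Irgm1 and in Gbp3 a pair of overlapping matches forms 1 longer capital run. The gamma-activated site was found in 3 of the 7 genes, Igtp, Irgm2 and Gbp7, against 8.3% of all windows, and the Gbp7 window held a pair of them. Igtp and Irgm2 carry both motifs in the same order and spacing, 30 bases further upstream in Irgm2. With that shift and no gaps, 184 of 270 bases of both windows were identical. The Ifi47 window held neither motif, and neither did a second window of Gbp3. The C/EBP motif TTGCNNCAA, searched on both strands, was absent from all 7 genes' windows and present in 2.08% of all windows. These letter matches are descriptions of the sequence, and whether any factor bound there was not tested.

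**Figure D1:**
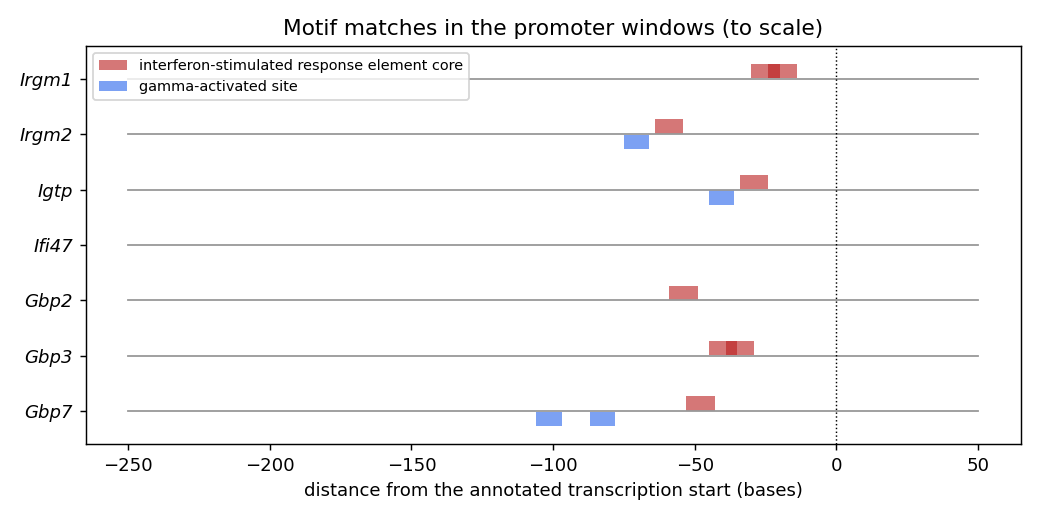
Positions of motif matches in the promoter windows of 7 GTPase genes, as distance in bases from the annotated start (dotted line). Red boxes above a line are response element cores and blue boxes below it are gamma-activated sites; 6 windows have a red box, all within 64 bases of the start, and Ifi47 has none.

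Libraries held 87360490, 92987497 and 81256192 counts in knockout cells and 120262861, 122797031 and 107757415 counts in wild type cells, so that 3 counts equal at most 0.0349 CPM, the unit of counts scaled to library size used below. The deleted Cebpb had 78, 109 and 78 counts in knockout cells and 18184, 17628 and 12036 counts in wild type cells. Keratinocyte markers were abundant in all 6 libraries, and their 12 genes summed to 26200 to 27120 CPM in knockout and 43300 to 48410 CPM in wild type cells. Krt5 and Krt14 made up most of these sums. By the edgeR test given below, 9 of the 12 were called lower in knockout cells and 2 higher. Over all tested genes these shares were 23.7% and 24.8%. The median log2 fold change of the 12 markers was -0.70. Y-linked transcripts also moved with genotype, since Ddx3y, Eif2s3y, Kdm5d and Uty together reached 0.101 to 0.158 CPM in knockout and 60.7 to 68.1 CPM in wild type libraries. Sex of the pups and genotype therefore cannot be told apart in the results below. In such bulk RNA, fewer cells of a type and less RNA per cell cannot be told apart.

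Of the 8 GTPases, 7 rose in knockout cells and Iigp1 did not pass the test. The rises lay between 1.10 and 2.01 log2 units, and the median over all 8 genes was 1.41, against 0.013 over the 17659 genes tested. Calls were made at an adjusted p under 0.05 in edgeR (quasi-likelihood F test, Benjamini-Hochberg correction over all tested genes), which called 24.8% of all genes higher and 23.7% lower. The knockout libraries lay above every wild type library in the same 7 genes, an arrangement that 28.7% of all tested genes showed. These 8 genes and the lists below were chosen with earlier results of these data known.

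Among the regulatory GTPases, Irgm1 (ENSMUSG00000046879) had the smallest p of the 8. Irgm1, which mice need to control mycobacteria, stood at 42.9, 36.9 and 40.1 CPM in knockout libraries, against 11.7, 10.3 and 15.2 CPM in wild type libraries. The groups lie far apart, with the lowest knockout library above the highest wild type one. Its mean was 40.0 ± 2.99 CPM in knockout and 12.4 ± 2.54 CPM in wild type cells (SD, n = 3 each), a log2 fold change of 1.69 ± 0.12 (SE, edgeR adjusted p = 9.62e-09). Irgm2 (ENSMUSG00000069874), known in mouse macrophages as a brake on caspase-11, had 28.3, 27.6 and 26.6 CPM in knockout libraries, against 8.91, 7.46 and 14.2 CPM in wild type libraries. The knockout libraries were close to each other, and wild type library 3 stood above the other two. The log2 fold change of Irgm2 was 1.44 ± 0.20 (SE, edgeR adjusted p = 0.000187). Igtp (ENSMUSG00000078853), an endoplasmic reticulum protein that protects mice against Toxoplasma, had 46.3, 45.5 and 41.0 CPM in knockout libraries, against 16.8, 12.6 and 22.2 CPM in wild type libraries. Again library 3 was the highest and library 2 the lowest in wild type, as for Irgm1 and Irgm2. The rise of Igtp was 1.37 ± 0.17 log2 units (SE, edgeR adjusted p = 9.12e-05).

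Of the effector-class GTPases, both scarce, Ifi47 rose and Iigp1 was not called. Ifi47 (ENSMUSG00000078920) had 1.52, 1.39 and 0.942 CPM in knockout libraries, from 145, 138 and 81 counts, against 0.385, 0.559 and 0.531 CPM in wild type libraries, from 43, 65 and 53 counts. Groups did not overlap, and Ifi47 rose by 1.39 ± 0.28 log2 units (SE, edgeR adjusted p = 0.000553). Iigp1 (ENSMUSG00000054072), which oligomerises on the vacuoles of Toxoplasma and Chlamydia, had 2.03, 0.373 and 0.558 CPM in knockout libraries, against 0.681, 1.41 and 1.32 CPM in wild type libraries. Knockout library 4 held the highest value of all 6, and libraries 5 and 6 the lowest values. The means of Iigp1 were 0.986 ± 0.907 CPM in knockout and 1.14 ± 0.398 CPM in wild type cells (SD, n = 3 each), and the log2 fold change was -0.20 ± 0.57 (SE, edgeR adjusted p = 0.804). Library 4 decides this value, because without it Iigp1 was called lower (log2 fold change -1.29 ± 0.36, SE, edgeR adjusted p = 0.00661). Without library 5 or 6 the value was 0.19 or 0.074 and not called.

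The 3 guanylate-binding protein genes all rose. Gbp7 (ENSMUSG00000040253), which in mouse macrophages helps assemble the NADPH oxidase on vacuoles, had 11.97, 9.80 and 10.7 CPM in knockout libraries, against 2.12, 2.72 and 3.25 CPM in wild type libraries. With a log2 fold change of 2.01 ± 0.15 (SE, edgeR adjusted p = 2.32e-08), Gbp7 had the highest estimate of the 8 genes. Gbp3 (ENSMUSG00000028268) had 19.0, 15.6 and 17.6 CPM in knockout libraries, against 3.59, 4.72 and 5.98 CPM in wild type libraries, and rose by 1.87 ± 0.15 log2 units (SE, edgeR adjusted p = 5.03e-08). Gbp2 (ENSMUSG00000028270), which coats Toxoplasma vacuoles and cytosolic bacteria in mouse cells, had 20.5, 16.7 and 18.9 CPM in knockout libraries, against 6.96, 9.65 and 9.56 CPM in wild type libraries. Gbp2 showed the smallest rise of the 7 genes called, 1.10 ± 0.13 log2 units (SE, edgeR adjusted p = 2.64e-06). Library 4 was highest and library 5 lowest among knockout cells in all 3 guanylate-binding protein genes, and library 1 was lowest among wild type cells. Differences in response between the 8 genes were not tested.

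**Figure D2:**
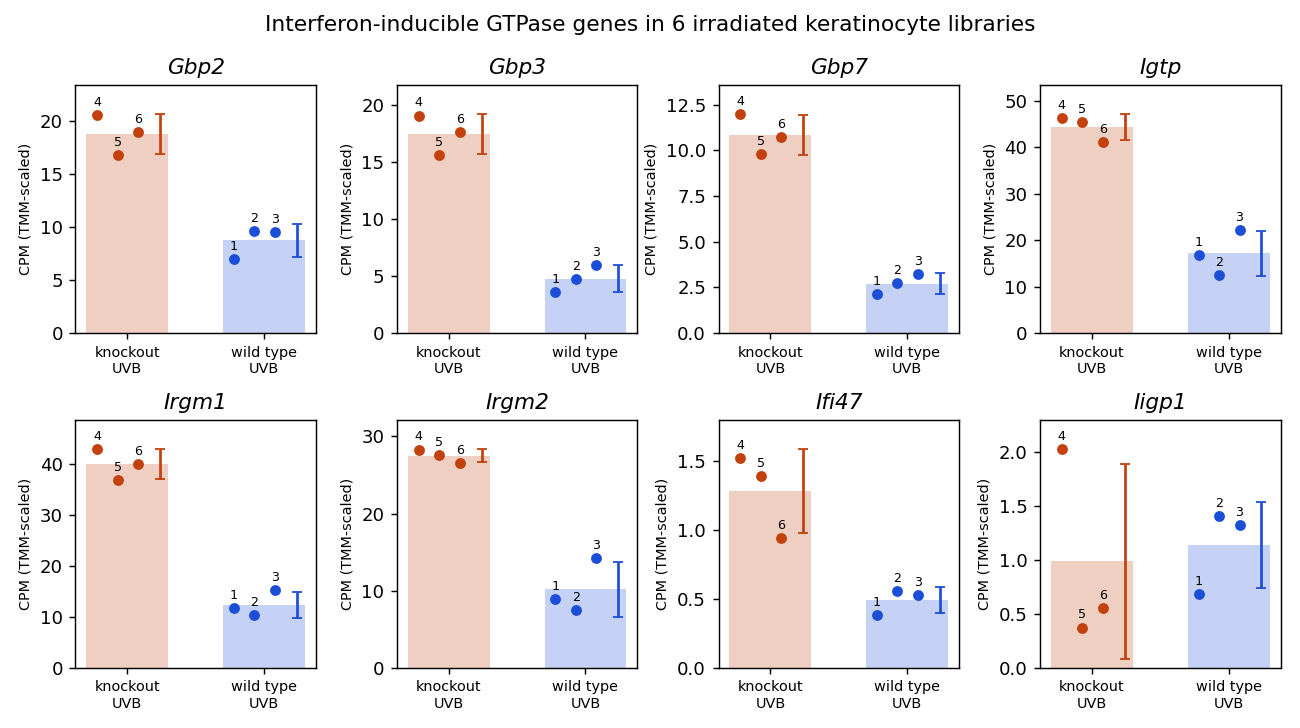
Level of each GTPase gene in CPM (linear axis from 0) in the 3 knockout UVB libraries (orange) and the 3 wild type UVB libraries (blue). Points are libraries with their numbers, bars are means and whiskers are SDs; knockout points lie above all wild type points in every panel except that of Iigp1, where library 4 stands at 2.03 CPM and the other knockout libraries at 0.373 and 0.558 CPM.

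Per length, Igtp was the most abundant of the 8 genes in both genotypes. Counts were divided by the exon bases of each gene and scaled to a common total (TPM), the only scale here on which genes can be compared. TPM values lack the trimmed mean scaling between libraries that CPM values have. Gaps between genotypes therefore differ between these scales, and for Iigp1 the order of the genotype means does too. Igtp stood at 71.2 ± 5.97 TPM in knockout and 22.9 ± 6.08 TPM in wild type cells (SD, n = 3 each), above every library of every other GTPase in the same genotype. Next in level came Gbp2, with a mean of 24.2 TPM in knockout and 9.37 TPM in wild type cells. Irgm2 averaged 24.2 TPM in knockout and 7.42 TPM in wild type cells, and Irgm1 22.4 TPM in knockout and 5.74 TPM in wild type cells. The knockout ranges of Gbp2, Irgm2 and Irgm1 overlap, and in wild type that of Irgm2 overlaps with both of the others. All genes were measured in the same libraries, so such ranges also hold differences between libraries. Within every library Irgm1 stood below Gbp2 and below Irgm2, while the order of Gbp2 and Irgm2 changed between libraries. Whether these genes differ in level was not tested. Gbp3 followed at 17.3 ± 2.13 TPM in knockout and 3.94 ± 0.973 TPM in wild type cells, below all libraries of these 3 genes in its genotype. Gbp7 stood at 6.28 ± 0.788 TPM in knockout and 1.30 ± 0.271 TPM in wild type cells. Ifi47 and Iigp1 were the lowest, at 1.69 ± 0.434 and 0.559 ± 0.528 TPM in knockout cells, and at 0.538 ± 0.109 and 0.529 ± 0.191 TPM in wild type cells, where the pair overlapped. With the longest transcript as the length, Irgm1 moved to the second place in knockout cells (26.2 TPM), while Igtp stayed first in both genotypes.

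**Figure D3:**
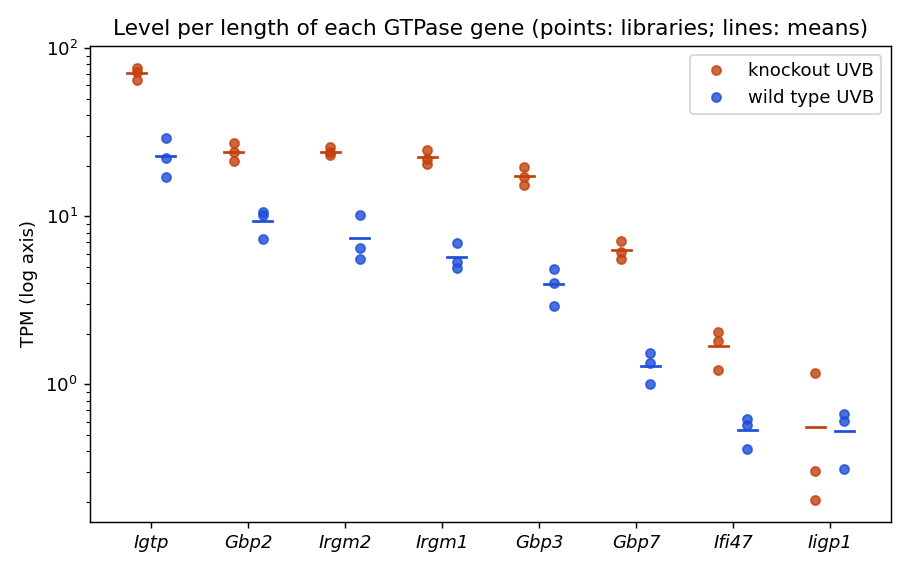
Level per length of each GTPase gene in TPM on a log axis, ordered by the knockout mean. Orange points are knockout UVB libraries, blue points wild type UVB libraries and short lines their means; Igtp has the highest mean in both genotypes (71.2 TPM in knockout, 22.9 TPM in wild type) and Iigp1 the lowest (0.559 TPM in knockout, 0.529 TPM in wild type).

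Of 8 other guanylate-binding protein genes 4 were tested, and 1 of them rose, near the 24.8% of all tested genes called higher. They are given by chromosome, a grouping made after their values were seen. On chromosome 3, where Gbp2, Gbp3 and Gbp7 lie, 4 of the 5 tested family members rose, and the one not yet described is Gbp2b. Gbp2b had 12.9, 12.5 and 11.004 CPM in knockout libraries, against 5.13, 5.45 and 5.87 CPM in wild type libraries, and rose by 1.15 ± 0.12 log2 units (SE, edgeR adjusted p = 5.29e-07). The exception was Gbp5, which in mouse promotes inflammasome assembly and stood at 0.389, 0.0908 and 0.268 CPM in knockout libraries, against 0.403, 0.318 and 0.180 CPM in wild type libraries (edgeR adjusted p = 0.69). On chromosome 5, none of the 6 family members averaged more than 0.461 CPM in knockout or 0.291 CPM in wild type cells, and only Gbp6 and Gbp9 passed the filter. Neither was called, with log2 fold changes of 0.67 ± 0.47 for Gbp6 and 1.24 ± 0.69 for Gbp9 (SE, edgeR adjusted p = 0.261 and 0.155). For Gbp6, knockout library 4 stood apart at 0.830 CPM, with 0.262 and 0.291 CPM in libraries 5 and 6, against 0.224 to 0.381 CPM in wild type libraries. Gbp6 and Iigp1 thus share a high value in knockout library 4, but that order was not particular to them. Library 4 was the highest knockout library for all 8 GTPases chosen, and for Gbp2b. The same held for Irf1, Irf2, Irf9, Jak2, Trim21, Rnf213, Mx1 and Mx2, described below. Library 5 was the highest for Gbp9 and, also described below, for Icam1, Tap1, Ifngr1 and Ifngr2.

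Among the other immunity-related GTPases 0 of the 8 tested rose and 3 fell, against 24.8% and 23.7% of all tested genes. Irgc1, a testis gene in mouse that interferon is not known to induce, had 0.683, 1.12 and 0.605 CPM in knockout libraries, against 3.49, 2.52 and 2.42 CPM in wild type libraries. It fell by 1.80 ± 0.24 log2 units (SE, edgeR adjusted p = 1.41e-05). The unnamed family gene 9930111J21Rik2 also fell, with a log2 fold change of -0.92 ± 0.26 (SE, edgeR adjusted p = 0.00675). For 9930111J21Rik1 it was -1.91 ± 0.65 (SE, edgeR adjusted p = 0.0227), a call that was lost without library 1, 2, 5 or 6 (-1.82, -1.78, -1.38 and -1.96, edgeR adjusted p = 0.0602, 0.074, 0.0804 and 0.0598). Without library 4 it was -2.67 (edgeR adjusted p = 0.01). Tgtp1 and Tgtp2, effectors with nearly identical sequences whose reads cannot be assigned with certainty, had log2 fold changes of 0.22 ± 0.43 and 0.24 ± 0.61 (SE, edgeR adjusted p = 0.708 and 0.78). Gm12250, also called Irgb10, which exposes bacterial products to inflammasomes in mouse macrophages, was not called (0.16 ± 0.29, SE, edgeR adjusted p = 0.687), nor was Gm5431 (0.69 ± 0.63, SE, edgeR adjusted p = 0.4). Leaving out 1 library moved Gm5431 to between 0.40 and 1.43, the highest without wild type library 2, and it stayed uncalled. Irgq, a relative with an altered nucleotide-binding site, stood at 195 to 202 CPM in knockout and 198 to 213 CPM in wild type libraries, and had a log2 fold change of -0.028 ± 0.055 (SE, edgeR adjusted p = 0.706). With library totals in place of the trimmed mean scaling Irgq was called higher (0.17, edgeR adjusted p = 0.0159). Of the dynamin-like Mx and the very large Gvin GTPases, 2 genes were tested, both of the Mx family, which blocks virus replication. Mx2 rose by 1.02 ± 0.17 log2 units (SE, edgeR adjusted p = 0.000105), and Mx1, named after its value was seen, had a log2 fold change of -0.41 ± 0.20 (SE, edgeR adjusted p = 0.106). Mx1 was called lower without wild type library 1 (-0.58, edgeR adjusted p = 0.0181) without knockout library 4 (-0.63, edgeR adjusted p = 0.0154) and when genes of low count were kept (-0.41, edgeR adjusted p = 0.043).

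**Figure D4:**
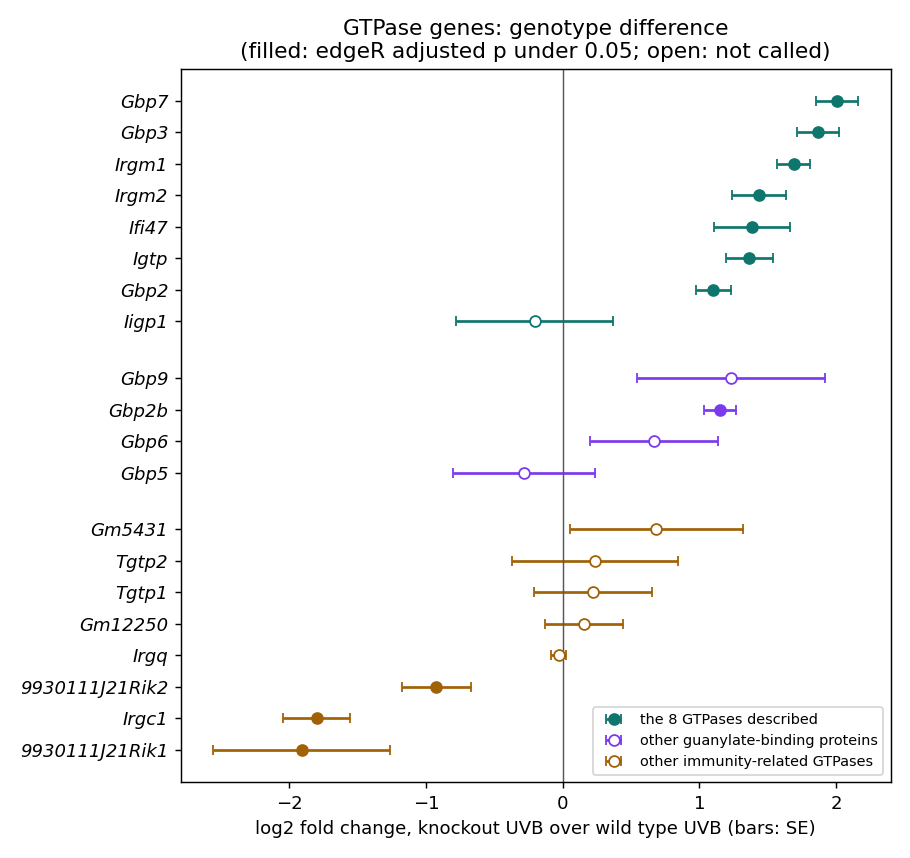
Log2 fold change, knockout UVB over wild type UVB, of the 8 GTPases and of the other tested members of both families, with SE bars. Filled points passed an edgeR adjusted p of 0.05; of the 8 genes only Iigp1 (-0.20) is open, Gbp2b (1.15) is the only filled point on the right among the others, and Irgc1, 9930111J21Rik1 and 9930111J21Rik2 are filled on the left.

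Upstream of the GTPases, 8 of 16 tested genes of interferon gamma signalling rose in knockout cells, 1 fell and 7 did not pass. Over all tested genes the shares called higher and lower were 24.8% and 23.7%. The median log2 fold change of the list was 0.31. The ligand was not detected at this depth. Ifng had 0 counts in each of the 6 libraries, which allows a level of up to 0.0258 to 0.0349 CPM. The transcription factor gene Irf1 stood at 36.1, 33.2 and 30.2 CPM in knockout libraries, against 7.14, 7.05 and 6.36 CPM in wild type libraries (log2 fold change 2.27 ± 0.10, SE, edgeR adjusted p = 2.69e-11). The genotypes did not overlap in Irf1. The receptor chain genes Ifngr2 and Ifngr1 rose by 0.74 ± 0.06 and 0.42 ± 0.08 log2 units, and the receptor kinase gene Jak2 by 0.88 ± 0.12 (SE, edgeR adjusted p = 2.77e-08, 0.000403 and 1.5e-05). The kinase gene Jak1 had a log2 fold change of -0.080 ± 0.079 (SE, edgeR adjusted p = 0.436), and of 0.12, also not called, with library totals. Irf2, which can compete with IRF1 for its sites, rose by 1.20 ± 0.16, and Irf9 by 0.74 ± 0.18 (SE, edgeR adjusted p = 1.26e-05 and 0.011). The call of Irf9 was lost without wild type library 1 (0.71, edgeR adjusted p = 0.0936) and when genes of low count were kept (0.74, edgeR adjusted p = 0.0996). The feedback inhibitor gene Socs1 was not called (-0.33 ± 0.18, SE, edgeR adjusted p = 0.15), but was called lower without wild type library 2 (-0.48, edgeR adjusted p = 0.0367). Irf8, a myeloid and lymphoid factor, did not pass the filter, with 0.0105 to 0.0504 CPM in knockout and 0.0401 to 0.126 CPM in wild type libraries. Ifnb1, a type I interferon gene, stood at 0.380 ± 0.0282 CPM in knockout and 0.551 ± 0.0547 CPM in wild type cells (SD, n = 3 each; edgeR adjusted p = 0.189). The gene that fell was the phosphatase gene Ptpn2 (-0.46, edgeR adjusted p = 0.00212), named after its value was seen, and it was not called with library totals (-0.26, edgeR adjusted p = 0.0662).

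Among other genes that interferon gamma and IRF1 induce, 15 of 27 tested genes rose, 2 fell and 10 did not pass. Their median log2 fold change was 0.71. Of all tested genes 24.8% were called higher and 23.7% lower. The adhesion molecule gene Icam1, with the smallest p, stood at 179.6 to 212 CPM in knockout and 70.8 to 81.8 CPM in wild type libraries and rose by 1.36 ± 0.07 log2 units (SE, edgeR adjusted p = 3.36e-10). Psme2, a proteasome activator, rose by 1.10 ± 0.07 log2 units, and the peptide transporter gene Tap1 by 0.82 ± 0.07 (SE, edgeR adjusted p = 2.18e-09 and 5.68e-08). The falls were in Wars, a tryptophan-tRNA ligase gene named after its value was seen (-0.56, edgeR adjusted p = 2.39e-06), and in Aim2, described below.

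Partners that help bring the GTPases to vacuoles belong to autophagy-like conjugation and ubiquitin tagging. Of these 18 genes, all tested, 2 rose, 10 fell and 6 did not pass, and the median log2 fold change was -0.27. For this list and the next, the shares of all tested genes are 24.8% called higher and 23.7% lower. The rises were in a pair of ubiquitin ligase genes, Trim21, which stood at 47.4 to 52.0 CPM in knockout and 11.3 to 16.3 CPM in wild type libraries, and Rnf213, which rose by 1.16 ± 0.10 log2 units (SE, edgeR adjusted p = 1.12e-07). Trim21 rose by 1.85 ± 0.11 log2 units (SE, edgeR adjusted p = 9.28e-10). Ube2n, a ubiquitin-conjugating enzyme, fell by 0.65 ± 0.06 log2 units (SE, edgeR adjusted p = 1.02e-07). With library totals 5 genes of this list rose in place of 2. Among caspase-11 and inflammasome partners 0 of 7 rose and 3 fell, with a median log2 fold change of 0.096. Pycard, the ASC adaptor, fell by 1.13 ± 0.12 log2 units (SE, edgeR adjusted p = 5.81e-07). The protease gene Casp1 and the DNA sensor gene Aim2, both under 1 CPM, had log2 fold changes of -1.71 ± 0.60 and -1.53 ± 0.55 (SE, edgeR adjusted p = 0.0264 and 0.0312). The call of Casp1 was lost without library 1, 2, 3, 5 or 6 (log2 fold changes of -1.74 to -1.30, edgeR adjusted p = 0.0565 to 0.102), and that of Aim2 without library 2, 3, 4 or 6 (-1.54 to -1.16, edgeR adjusted p = 0.0654 to 0.139) and with library totals (-1.34, edgeR adjusted p = 0.0554). Both were lower still without 1 knockout library, Casp1 at -2.46 without library 4 (edgeR adjusted p = 0.0103) and Aim2 at -2.49 without library 5 (edgeR adjusted p = 0.00498).

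**Figure D5:**
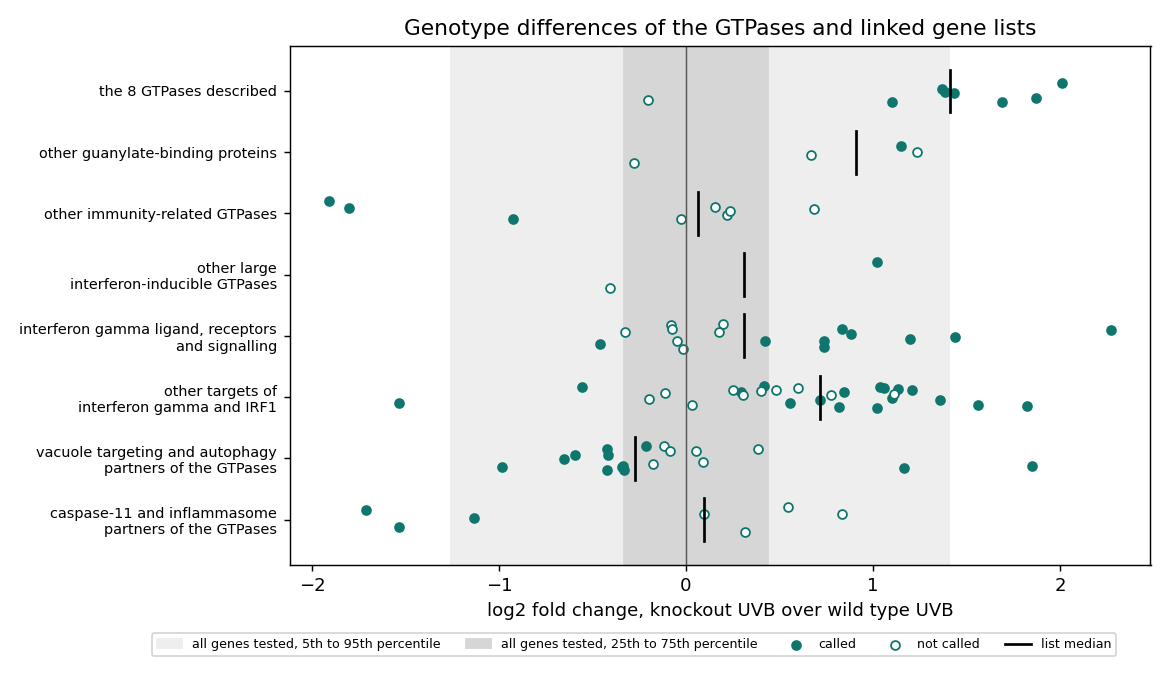
Log2 fold changes, knockout UVB over wild type UVB, of every tested gene in the list of 8 GTPases and in 7 linked lists, with list medians as black lines. Filled points were called by edgeR; shaded bands are percentile ranges of all 17659 tested genes, and the median of the 8 GTPases (1.41) lies at the edge of the outer band, whereas that of the vacuole targeting partners is -0.27.

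Most defining markers of immune cells, which express these GTPases too, were at or near 0. Among 12 T and NK cell markers 7 had no count in any library, Cd3e and Cd3d included, and the list summed to 1.01 to 1.11 CPM in knockout and 0.0359 to 0.155 CPM in wild type libraries. The T cell receptor constant regions Trac and Trdc made up most of the knockout sum. These 2 were the only tested genes of the list. Both were called higher in knockout cells, with log2 fold changes of 4.79 ± 0.77 and 3.80 ± 0.67 (SE, edgeR adjusted p = 7.3e-05 and 0.000175). Ptprc, which marks all blood cells of the immune system, had no count in any knockout library and at most 0.0501 CPM in wild type libraries. Of 16 macrophage and Langerhans cell markers, 12 averaged under 1 CPM. That list summed to 1642 to 1914 CPM in knockout and 431.6 to 497.2 CPM in wild type libraries, almost all of it from Epcam and Cd68, which keratinocytes can express too. Without this pair, left out after values were seen, it summed to 4.12 to 5.73 CPM in knockout and 7.66 to 10.7 CPM in wild type libraries. Most of that came from Csf1r and H2-Ab1. Of 9 tested genes in the full list, 6 were called lower and 1, Epcam, higher, against 23.7% and 24.8% of all tested genes. Among those called lower, Lyz2 averaged 0.0439 CPM in knockout and 1.13 CPM in wild type cells. Mrc1 averaged 0.00336 CPM in knockout and 0.292 CPM in wild type cells, and C1qa 0.0465 and 0.561 CPM. Cd207, which defines Langerhans cells, reached 1 count at most in a library. Mast cell markers summed to 2.89 to 3.03 CPM in knockout and 3.45 to 5.72 CPM in wild type libraries. Most of this was Kit, at 2.35 to 2.72 CPM in knockout and 3.21 to 5.38 CPM in wild type libraries. No count was found for 3 of the 6 mast cell markers. Fibroblast markers summed to 5.38 to 5.65 CPM in knockout and 6.45 to 9.58 CPM in wild type libraries. Endothelial markers summed to 4.95 to 5.87 CPM in knockout and 6.98 to 7.48 CPM in wild type libraries. Kdr made up most of this, at 4.23 to 5.13 CPM in knockout and 6.04 to 6.67 CPM in wild type libraries, while 2 of the 6 markers had no count. Melanocyte markers were present in both genotypes, at 607.1 to 688.4 CPM in knockout and 695.1 to 783.2 CPM in wild type libraries. The part of any of these cells in the GTPase levels was not tested.

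For each GTPase, the gene outside the lists with the most similar profile was sought by the root mean square distance of centred log2 CPM over the 6 libraries, among 12399 candidates. Oasl2, an interferon-induced relative of the OAS enzymes, was nearest to Gbp7 at a distance of 0.0747 log2 units, and Nmi, an interferon-induced gene, to Gbp2 at 0.0431. Trim34a was nearest to both Igtp (0.0507) and Irgm2 (0.132), and Trim30a, a TRIM ligase gene, to Iigp1 (0.206). Trim30a had 2.53, 0.696 and 1.05 CPM in knockout libraries, against 1.16, 2.22 and 1.83 CPM in wild type libraries, with library 4 high as for Iigp1. The nearest genes of Irgm1, Gbp3 and Ifi47 were the kinesin gene Kif23 (0.0697), Plxnd1 (0.0779) and Fndc10 (0.114). The 6 points of each profile share the same libraries and fall into 2 genotypes.

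Some exons are shared between genes, and how the counting treated them is not known. In the GENCODE M21 annotation 162 exon bases are shared by Igtp and Irgm2, 8.01% of Igtp and 4.39% of Irgm2. Of the exon bases of Gbp7, 11.3% lie also in Gm43802 on the same strand, and of Ifi47, 4.49% lie also in Olfr56 on the same strand and 4.29% in Gm12188 on the opposite strand. No stretch of 150 bases, the read length, from Gbp2, Gbp3, Irgm1, Ifi47 or Iigp1 recurs in the transcripts of another gene there. Such stretches make up 8.77% of those of Gbp7, 0.739% of those of Igtp and 0.437% of those of Irgm2.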

How the data were processed

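Per the labels' protocols, libraries from total RNA were read from both ends at 150 bp. The authors deposited 1 table of whole-number counts, with a row per gene and a column per library and no normalisation. STAR, HTSeq, FastQC and DESeq2 and the builds mm39 and GRCm39 are listed in the submitters' processing notes; the sources used here give neither their versions nor the annotation release or strand setting, so reads from genes that overlap on either strand cannot be assigned with certainty. Symbols matched 52083 of 55416 identifiers through a table of gene names, and 52135 had an exon length in GENCODE M21, which is on the older GRCm38.

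Genotypes were compared with edgeR 4.0.16 (R 4.3.3): filterByExpr with a minimum of 10 counts (17659 genes left), TMM scaling (trimmed mean of M values), the robust quasi-likelihood test with genotype as the only term, and Benjamini-Hochberg adjustment, called under 0.05. CPM values are TMM-scaled, errors beside them are SDs over 3 libraries, and SEs of log2 fold changes are the fold change over the square root of F. The chi-square statistic over its degrees of freedom was 19.7 to 46.9 for pairs of 1 genotype and 548 to 606 across genotypes, so no library was counted as a repeat of another. Floors of 3 counts cover counting error only. Alternatives were DESeq2 size factors, library totals, no filter, a mean of at least 1 CPM, DESeq2 (1.42.0), limma voom (3.58.1), thinning to the smallest total, leaving out X and Y genes, and leaving out each library.

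The GTPases, the 7 linked gene lists and 7 marker lists were chosen with earlier results of these data known. Named are all 8 GTPases, every other tested member of both families, a fixed set of pathway genes (Ifng, Ifngr1, Ifngr2, Jak1, Jak2, Irf1, Irf2, Irf8, Irf9, Socs1, Ifnb1, Cebpb), the 3 called genes with the smallest p of each other list, and the nearest profile of each GTPase; exceptions are marked in the text, and 1 gene that the rule names is not reported here.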

Additional observations from a re-analysis of the deposited data

How the results depend on the processing

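The rises of Gbp2, Gbp3, Gbp7, Igtp, Irgm1 and Irgm2 were called under all 14 alternatives, and that of Ifi47 under the 13 in which it was tested (it falls under a mean of 1 CPM). Their log2 fold changes ranged from 0.96 (Gbp2) to 2.21 (Gbp7), with edgeR, DESeq2 or limma adjusted p of at most 0.00592. Library totals move the median of all genes to 0.21, against 0.013 with TMM, and give 6478 genes higher and 2452 lower over all genes, against 4387 and 4192. The log2 fold change of Iigp1 was 0.0029 with library totals and -1.29 to 0.19 when 1 replicate was left out; without replicate 5 and 6 it was 0.19 and 0.074, and without replicate 4 it was -1.29 and called, so that the count of GTPases called lower was 0 to 1. Other uncalled values changed sign when 1 replicate was left out: Gbp5 ranged from -0.76 to 0.12, Gbp6 from -0.069 to 0.96, Tgtp1 from -0.052 to 0.52, Tgtp2 from -0.25 to 0.70 and Irgq from -0.054 to 0.0056. Tgtp2 was at -0.038 with limma voom, and with library totals Irgq was at 0.17 (called) and Jak1 at 0.12. Over 492 values of 36 other named genes, 461 kept direction and call, 17 lost the call, 4 gained one and 10 changed sign; the cause was not tested.

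Counts of small lists also moved. With library totals, 1 other immunity-related GTPase and 5 vacuole targeting genes were called higher, and 0 interferon gamma pathway genes and 1 other target lower. With a mean of at least 1 CPM, where fewer genes are tested, 1 gene was called lower in each of the other immunity-related, other target and inflammasome lists. With no filter 1 gene of the Mx and Gvin list was called lower. Leaving out 1 replicate gave 0 to 1 lower calls in that list, 1 to 2 in the interferon gamma pathway, 1 to 2 among other targets and 1 to 2 among inflammasome partners. Levels per length by the longest transcript in place of all exon bases were, in knockout cells, 55.0 TPM for Igtp, 18.7 for Gbp2, 19.6 for Irgm2, 26.2 for Irgm1 and 4.85 for Gbp7, and in wild type cells 7.34 for Gbp2, 1.01 for Gbp7 and 0.773 for Iigp1. No paired analysis was made, because the labels name no pairs of libraries across the 2 genotypes. Depth limits Ifi47 and Iigp1, with 37 to 193 counts a knockout library.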
